A study of Mus musculus with 6 samples.

Results

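Adipokines are proteins that fat tissue secretes into the blood or its surroundings, and 8 genes that encode them were followed here by RNA-seq in the gonadal white fat (gWAT), the pad beside the male reproductive tract: *Lep*, *Adipoq*, *Retn*, *Cfd*, *Rbp4*, *Nampt*, *Apln* and *Rarres2*. They were chosen by name, as the entries of the read-count table whose NCBI gene identifier maps to these symbols, and make up 8 of the 19790 genes of the table. The samples came from C57BL/6 mice labelled wild-type. Of these, 3 ate normal chow (NCD) and 3 ate a high-fat diet (HFD), for 8 weeks in both cases. The labels give an age of 6 weeks at the start of feeding, the methods give a later start, and the methods state that the mice were male. The methods also use the name WT for floxed *Tmem86a* mice without Cre, and the labels of these 6 mice name no floxed allele. The comparison asks how feeding changed the transcripts of the fat pad. Each library came from 1 mouse, and p-values measure the spread between these mice.

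Leptin, the product of *Lep*, reports the size of the fat stores to the brain, and adiponectin, the product of *Adipoq*, acts on liver and muscle and is made almost only by adipocytes. Adipsin, the product of *Cfd*, is complement factor D, a protease that starts the alternative complement pathway, and resistin (*Retn*) is in mice a hormone of white adipocytes that opposes insulin action. Retinol-binding protein 4 (*Rbp4*) carries vitamin A in the blood, NAMPT (visfatin) makes a precursor of NAD inside cells and is also secreted, apelin (*Apln*) is a peptide that acts on heart and vessels, and chemerin (*Rarres2*) attracts immune cells and acts on adipocytes.

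The 6 libraries held between 49575113 and 66360046 counts, and 11 genes of the seminal vesicle, a gland that adjoins this fat pad, took 58.6% of the counts of NCD replicate 1, 11.2% of NCD replicate 2 and 2.30% of NCD replicate 3, against at most 0.121 CPM (counts of a gene per 1000000 counts of the library) in an HFD-fed mouse. The 12 markers of adipocytes, a list that holds none of the 8 genes, were all detected in every library and took 0.279% of the counts of NCD replicate 1, compared to between 1.97% and 3.09% in the other 5 mice. The smooth muscle list, 8 genes that were all detected in every mouse, summed to 3342, 844 and 299 CPM in the NCD mice, in order of replicate number, and to between 326 and 414 CPM on HFD. NCD replicate 1 therefore stood apart, and the diet comparison of each adipokine is given with all 6 mice and without it. Levels were scaled with edgeR's TMM factors, 0.496 for NCD replicate 1 and between 1.02 and 1.27 for the other mice, and are given as TMM-scaled CPM. A gene was called changed at a Benjamini-Hochberg adjusted p under 0.05 in the quasi-likelihood test of edgeR (edgeR adjusted p), taken over all genes tested: 15241 with all 6 mice and 15510 without NCD replicate 1.

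With all 6 mice, *Nampt* fell 1.85-fold on HFD and was the single adipokine called of 8, with 0 called higher and 1 lower, against 5.58% of all genes tested called higher and 1.9% called lower. Of the 8, 5 had an unadjusted p under 0.05 in this test, beside 4524 of the 15241 genes tested. Without NCD replicate 1, 5 were lower on HFD (*Cfd* 10.7-fold, *Retn* 6.72-fold, *Rbp4* 3.89-fold, *Apln* 1.98-fold and *Nampt* 1.88-fold) and 1 was higher (*Rarres2*, 2.16-fold), against 10.1% of all genes called lower and 10.7% called higher. *Lep* and *Adipoq* were called in neither comparison. The median log2 fold change of the 8 genes was -0.73 with all 6 mice and -0.95 without NCD replicate 1, where that of all genes tested was -0.08 and 0.02. Leaving out any 1 of the other 5 mice instead left 0 of the 8 genes called, *Nampt* included, and between 2 and 7 genes called of all tested. Between 3 and 4 of the 8 then had an unadjusted p under 0.05, beside between 2988 and 4345 of all genes tested (15433 to 15764 genes). In TMM-scaled CPM the diets did not overlap for *Cfd*, *Nampt* and *Rarres2*, 3 of 8, while 39.2% of all genes tested did not overlap. These are bulk libraries, so fewer cells of a type and less RNA per cell cannot be told apart.

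**Figure D1:**
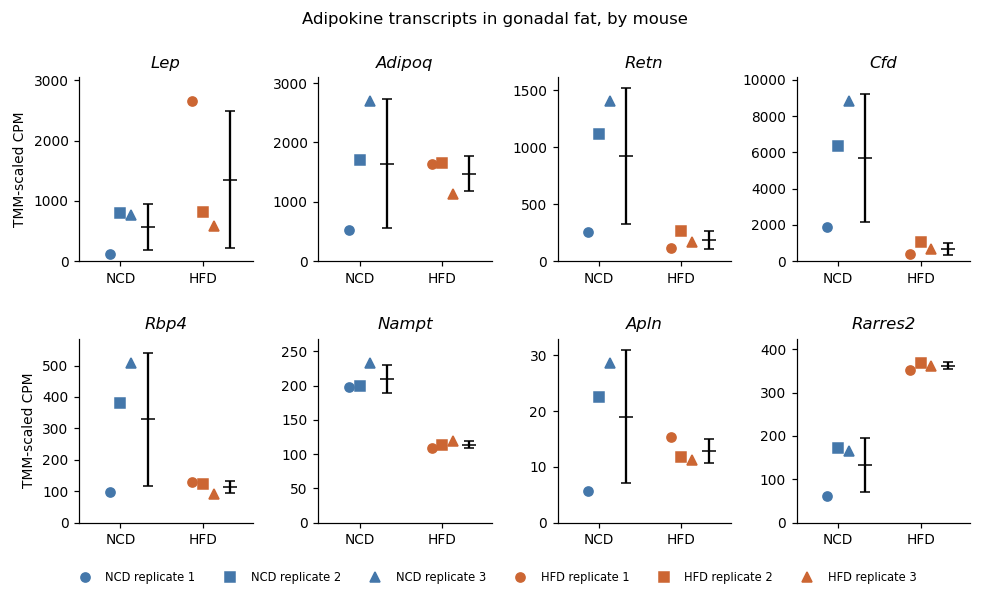
TMM-scaled CPM (linear axes from 0, a separate scale for each gene) of the 8 adipokine genes in each of the 3 NCD mice (blue) and 3 HFD mice (orange), with a symbol for each replicate number, and the mean of each diet with its SD in black. NCD replicate 1 (blue circle) was the lowest NCD mouse for every gene, and the diets were apart in all 6 mice for *Cfd*, *Nampt* and *Rarres2*.

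Start regions are shown as the 150 bases before the start of *Cfd*, *Retn* and *Rbp4*, the 3 genes whose ratio to *Adipoq* was lowest on HFD relative to NCD. Beside them are those of *Adipoq* and *Lep*, which were called in neither comparison. The sequences are from RefSeq (assembly GRCm38.p6), whose tables matched 7 of the 8 genes, all but *Rarres2*. They are written 5′ to 3′ on the strand of the gene and end at base -1, the base before the start. Capitals mark TTNCNNAA, a loose form of the site read by the C/EBP factors of adipocytes, and the TATA box letters TATAAA, each searched on both strands.
Cfd (chr10:79890703-79890852, plus strand): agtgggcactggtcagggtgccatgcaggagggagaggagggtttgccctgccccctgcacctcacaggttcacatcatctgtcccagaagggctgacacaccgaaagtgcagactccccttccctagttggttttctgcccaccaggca
Retn (chr8:3655620-3655769, plus strand): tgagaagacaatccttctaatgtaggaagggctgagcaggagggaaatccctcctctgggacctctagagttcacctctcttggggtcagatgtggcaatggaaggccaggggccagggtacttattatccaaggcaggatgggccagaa
Rbp4 (chr19:38124812-38124961, minus strand, the inner of its start sites): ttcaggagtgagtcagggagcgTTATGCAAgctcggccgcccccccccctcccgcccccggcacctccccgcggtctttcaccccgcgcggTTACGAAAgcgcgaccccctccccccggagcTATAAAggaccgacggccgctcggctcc
Adipoq (chr16:23146386-23146535, plus strand): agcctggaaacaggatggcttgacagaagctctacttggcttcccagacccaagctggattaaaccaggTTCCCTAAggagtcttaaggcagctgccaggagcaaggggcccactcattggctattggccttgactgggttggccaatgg
Lep (chr6:29060071-29060220, plus strand): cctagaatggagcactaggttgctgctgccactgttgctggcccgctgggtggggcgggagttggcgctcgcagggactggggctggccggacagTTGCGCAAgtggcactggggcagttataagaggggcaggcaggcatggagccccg
The C/EBP letters occurred in *Lep* from base -55 to -48, in *Adipoq* from -81 to -74 and before both start sites of *Rbp4*, and were not found in these windows of *Cfd*, *Retn*, *Nampt* or *Apln*. Of 32851 mouse promoters, 22.7% held them within 150 bases. TATAAA was found before the inner start of *Rbp4* alone and, in windows of the same length, in 7.57% of all promoters. A match is a description of the letters and not of a bound site.

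Between genes, levels were compared per length, as FPKM computed from the counts with exon lengths. In each NCD mouse the order began *Cfd*, *Adipoq*, *Retn* and *Rbp4*. *Cfd* reached 1007, 7025 and 10251 FPKM in NCD replicates 1, 2 and 3, where it was gene number 19, 6 and 3 of the 17793 genes with a length. In each HFD mouse *Adipoq* stood first, and *Cfd* was at 492, 1434 and 905 FPKM. *Lep* was second in HFD replicate 1, with 941 FPKM, and *Cfd* was second in HFD replicates 2 and 3. *Rarres2* moved from place 5 or 6 on NCD to place 3 or 4 on HFD, at 491, 557 and 551 FPKM in HFD replicates 1, 2 and 3, while *Retn* and *Rbp4* took places 5 and 6. *Nampt* was at place 6 or 7 and *Apln* last in all 6 mice, with between 0.905 and 9.76 FPKM. Means per diet overlapped within their SD for most neighbours: on NCD, *Retn* had 586 ± 453 FPKM (SD, n = 3) and *Rbp4* 266 ± 207 FPKM (SD, n = 3), while the order inside each mouse was the same. In sum the 8 genes took 0.156%, 1.10% and 1.57% of the counts of the NCD mice and 0.625%, 0.554% and 0.398% of those of the HFD mice.

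Numbered by replicate, *Lep* (NCBI gene 16846, chr6:29060221-29073876) stood at 126, 808 and 774 TMM-scaled CPM across the NCD mice 1, 2 and 3, compared to 2651, 814 and 592 across the HFD mice 1, 2 and 3. HFD replicate 1 was far above the other mice, and HFD replicates 2 and 3 lay around the level of NCD replicates 2 and 3. Diet means were 569 ± 384 under NCD (SD, n = 3 mice) and 1353 ± 1130 under HFD (SD, n = 3 mice). Its log2 fold change was 1.25 (standard error 0.869, edgeR adjusted p = 0.373) with all 6 mice and 0.78 (standard error 0.669, edgeR adjusted p = 0.438) without NCD replicate 1. With each mouse left out in turn it lay between 0.31, without HFD replicate 1, and 1.62. The difference in leptin transcript was smaller than the spread among the HFD mice.

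*Adipoq* (NCBI gene 11450, chr16:23146536-23157968) was at 532, 1701 and 2694 TMM-scaled CPM across the NCD mice 1, 2 and 3, compared to 1632, 1652 and 1139 across the HFD mice 1, 2 and 3. The diets overlapped, with the lowest and the highest value both among the NCD mice. Means were 1642 ± 1082 under NCD (SD, n = 3 mice) and 1475 ± 291 under HFD (SD, n = 3 mice). On the log2 scale the fold change of -0.16 (standard error 0.605, edgeR adjusted p = 0.882) turned to 0.15 on total counts alone, 0.11 in limma, 0.41 without NCD replicate 3 and 0.0086 without HFD replicate 3. It was -0.56 (standard error 0.313, edgeR adjusted p = 0.245) without NCD replicate 1.

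*Cfd* (NCBI gene 11537, chr10:79890853-79892655) was at 1874, 6338 and 8816 TMM-scaled CPM across the NCD mice 1, 2 and 3, compared to 392, 1052 and 659 across the HFD mice 1, 2 and 3. Every HFD mouse lay below every NCD mouse. Diet means were 5676 ± 3518 under NCD (SD, n = 3 mice) and 701 ± 332 under HFD (SD, n = 3 mice), with a two-sided exact permutation p of 0.1, below which 3 mice against 3 cannot go. Its log2 fold change of -3.02 (standard error 0.762) had an edgeR adjusted p of 0.065 and did not pass. *Cfd* fell without NCD replicate 1, by 3.42 on the log2 scale (standard error 0.491, edgeR adjusted p = 0.0111).

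*Retn* (NCBI gene 57264, chr8:3655770-3659818) was at 255, 1120 and 1406 TMM-scaled CPM across the NCD mice 1, 2 and 3, compared to 118, 269 and 171 across the HFD mice 1, 2 and 3. NCD replicate 1 lay just under HFD replicate 2, and the other NCD mice were above all HFD mice. Means were 927 ± 599 under NCD (SD, n = 3 mice) and 186 ± 76.4 under HFD (SD, n = 3 mice). Its log2 fold change of -2.32 (standard error 0.681) had an edgeR adjusted p of 0.0872. It was -2.75 (standard error 0.370, edgeR adjusted p = 0.00968) without NCD replicate 1. In both *Cfd* and *Retn*, HFD replicate 1 had the lowest value of all 6 mice, and this was the mouse with the highest *Lep*.

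*Rbp4* (NCBI gene 19662, chr19:38116620-38125321) was at 96.2, 380 and 509 TMM-scaled CPM across the NCD mice 1, 2 and 3, compared to 128, 122 and 90.2 across the HFD mice 1, 2 and 3. NCD replicate 1 lay among the HFD mice, and NCD replicates 2 and 3 lay above them. Means were 329 ± 211 under NCD (SD, n = 3 mice) and 113 ± 20.4 under HFD (SD, n = 3 mice). For *Rbp4* the log2 fold change was -1.53 (standard error 0.585, edgeR adjusted p = 0.146), and -1.96 (standard error 0.216, edgeR adjusted p = 0.00689) without NCD replicate 1.

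*Nampt* (NCBI gene 59027, chr12:32820335-32853369) was at 198, 199 and 234 TMM-scaled CPM across the NCD mice 1, 2 and 3, compared to 109, 113 and 119 across the HFD mice 1, 2 and 3. The diets were apart and each was narrow, with means of 210 ± 20.3 (SD, n = 3 mice) and 114 ± 5.26 (SD, n = 3 mice). It was the one adipokine for which NCD replicate 1 resembled the other NCD mice after TMM scaling. The log2 fold change was -0.89 (standard error 0.154, edgeR adjusted p = 0.0301), and -0.91 (standard error 0.132, edgeR adjusted p = 0.0112) without NCD replicate 1. On total counts alone it was -0.40 (edgeR adjusted p = 0.581). The annotated gene overlaps *Gdap10*, and the use of strand in counting is not stated, so reads of the overlap cannot be told apart.

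*Apln* (NCBI gene 30878, chrX:48025146-48034853) was the scarcest per length, at 5.75, 22.6 and 28.7 TMM-scaled CPM across the NCD mice 1, 2 and 3, compared to 15.3, 11.9 and 11.3 across the HFD mice 1, 2 and 3. All HFD mice lay between NCD replicate 1 and the other NCD mice. Means were 19.0 ± 11.9 (SD, n = 3 mice) and 12.8 ± 2.14 (SD, n = 3 mice). For *Apln* the log2 fold change was -0.57 (standard error 0.553, edgeR adjusted p = 0.518) with all 6 mice and -0.99 (standard error 0.190, edgeR adjusted p = 0.0219) without NCD replicate 1.

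*Rarres2* (NCBI gene 71660, chr6:48569696-48572845) was at 61.7, 172 and 165 TMM-scaled CPM across the NCD mice 1, 2 and 3, compared to 353, 369 and 362 across the HFD mice 1, 2 and 3. All HFD mice lay above all NCD mice and within 1 narrow range, with means of 133 ± 62.0 under NCD (SD, n = 3 mice) and 361 ± 8.06 under HFD (SD, n = 3 mice). For *Rarres2* the log2 fold change was 1.44 (standard error 0.402, edgeR adjusted p = 0.0791), and 1.11 (standard error 0.131, edgeR adjusted p = 0.00769) without NCD replicate 1. All 7 stromal progenitor markers were detected in every mouse. They summed to 1065, 1569 and 1208 TMM-scaled CPM on NCD and to 1753, 2298 and 1683 on HFD. The list was split. Means of *Dcn* (687 on NCD, 605 on HFD) and *Dpp4* (112 and 43.2, with 263 in NCD replicate 1) were lower on HFD. Those of *Col1a1* (123 and 531), *Ly6a* (195 and 455), *Cd34*, *Pdgfra* and *Pi16* were higher. With no mouse left out, edgeR called *Col1a1* alone of this list. The part of these markers in the level of *Rarres2* was not tested. The annotated gene overlaps *Lrrc61*, with the same limit on strand as for *Nampt*.

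**Figure D2:**
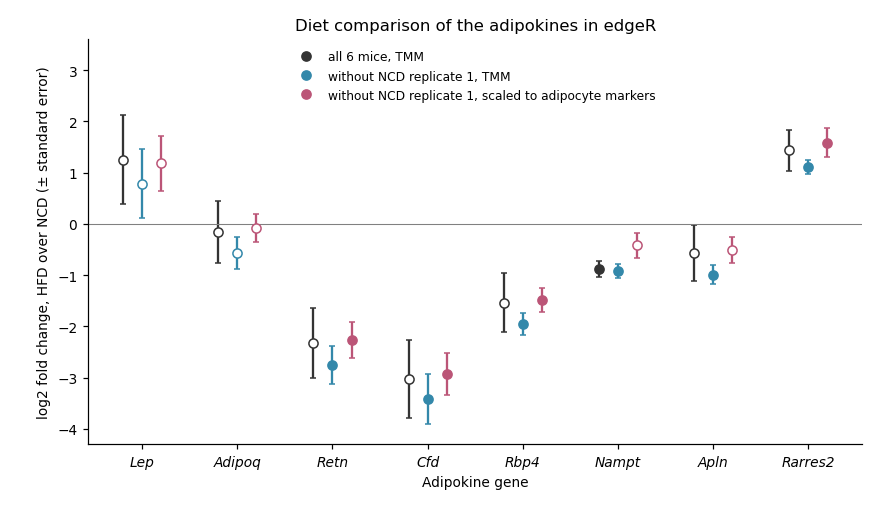
Log2 fold change of HFD over NCD with its standard error for each adipokine, from edgeR with all 6 mice (black), without NCD replicate 1 (blue) and without that mouse and scaled to 12 adipocyte markers (pink), where filled points had an adjusted p under 0.05. *Nampt* is the single filled black point, 6 blue points are filled, and *Cfd*, *Retn*, *Rbp4* and *Rarres2* are filled in both blue and pink.

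Because the libraries differed in the share of adipocyte markers, each adipokine was divided by *Adipoq* of the same mouse, per length. *Cfd* was at 4.94, 5.22 and 4.59 times the FPKM of *Adipoq* in the NCD mice, compared to 0.336, 0.892 and 0.811 times in the HFD mice. On this scale NCD replicate 1 lay between the other NCD mice, and the mean ratio (of logs) was 7.86-fold lower on HFD. *Retn* was at 0.393, 0.539 and 0.427 of *Adipoq* on NCD and at 0.0592, 0.133 and 0.123 on HFD, a 4.53-fold lower mean ratio. *Rbp4* was at 0.190, 0.234 and 0.198 on NCD and at 0.0823, 0.0776 and 0.0830 on HFD, 2.55-fold lower. All 3 ratios were lower in every HFD mouse than in any NCD mouse, and the spread inside a diet was smallest for *Rbp4* on HFD and *Cfd* on NCD, with SDs of 0.05 and 0.09 on the log2 scale.

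*Rarres2* had the opposite direction, at 0.180, 0.157 and 0.0952 of *Adipoq* on NCD and at 0.336, 0.347 and 0.494 on HFD, a 2.77-fold higher mean ratio. *Lep* was at 0.0943, 0.188 and 0.114 on NCD and at 0.644, 0.195 and 0.206 on HFD, 2.34-fold higher, with NCD replicate 2 close under HFD replicate 2. Without HFD replicate 1 the log2 difference of the *Lep* ratio was 0.67 in place of 1.23. *Apln* was 1.32-fold lower relative to *Adipoq*, and its diets were apart by little. For these 6 ratios the diets did not overlap, and the two-sided exact permutation p was 0.1 for each (0.117 after Benjamini-Hochberg adjustment over the 7 ratios), which is the smallest p of 3 mice against 3. The share of all genes that would be apart on this scale was not computed. In TMM-scaled CPM it was 39.2% of all genes tested. *Nampt* had a ratio of 0.106 in NCD replicate 1, 0.0334 and 0.0248 in NCD replicates 2 and 3 and 0.0190, 0.0196 and 0.0298 in HFD replicates 1, 2 and 3, with overlapping diets (exact permutation p = 0.2, 0.2 after adjustment). The ratio of *Nampt* thus did not separate the diets, and its log2 difference went from -0.99 to -0.37 without NCD replicate 1. Leaving out that mouse changed the other ratios less, to 7.84-fold lower for *Cfd*, 4.84-fold for *Retn* and 2.66-fold for *Rbp4* and to 3.15-fold higher for *Rarres2*. NCD replicate 1 also had the highest smooth muscle sum, given above, whose part in its ratio of *Nampt* was not tested.

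**Figure D3:**
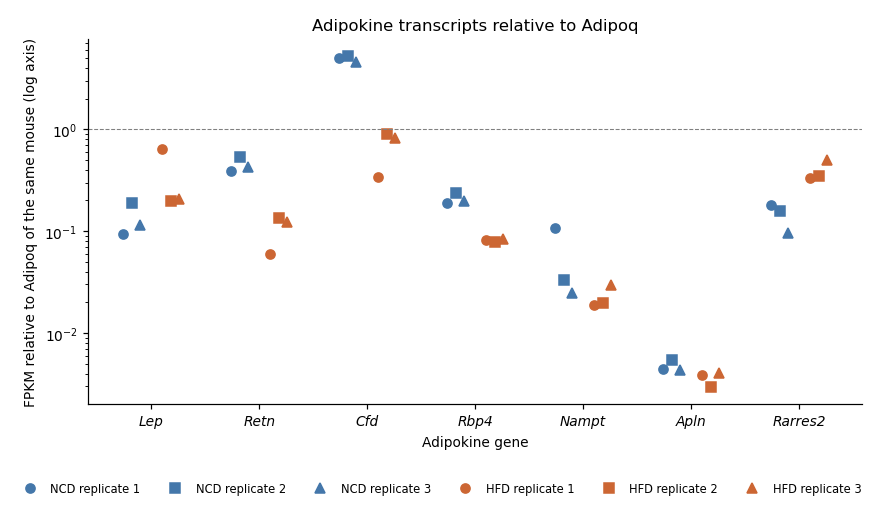
FPKM of 7 adipokines divided by that of *Adipoq* in the same mouse (log axis, dashed line at 1), with a point for each NCD (blue) and HFD (orange) mouse and a symbol for each replicate number. *Cfd* lies between 4.59 and 5.22 on NCD and below 1 on HFD, *Retn* and *Rbp4* are lower and *Rarres2* higher in all HFD mice, and *Nampt* overlaps.

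Relative to 12 adipocyte markers summed, the picture for single mice was close to that against *Adipoq*. *Adipoq* itself was at 94.4, 73.3 and 93.4 CPM per 1000 CPM of the markers in the NCD mice, compared to 80.6, 83.0 and 73.2 in the HFD mice, with overlapping diets (exact permutation p = 0.3). *Cfd* was at 333, 273 and 306 on NCD and at 19.3, 52.8 and 42.4 on HFD. *Retn* was at 45.3, 48.3 and 48.8 on NCD and at 5.83, 13.5 and 11.01 on HFD, and *Rbp4* at 17.1, 16.4 and 17.7 against 6.32, 6.14 and 5.80. NCD replicate 1 thus fell in with its diet for *Cfd*, *Retn*, *Rbp4* and *Apln*. The adipokines other than *Adipoq* were apart between the diets, each with an exact permutation p of 0.1 (0.114 after Benjamini-Hochberg adjustment over 8). *Nampt* was apart by little, with 8.10 in NCD replicate 3 and 7.66 in HFD replicate 3. The share of all genes that would be apart was not computed on this scale either. On this scale *Lep* had a log2 difference of 1.09, and 0.52 without HFD replicate 1, and *Nampt* had -1.13, and -0.44 without NCD replicate 1. With *Plin1* alone in place of the 12 markers, *Adipoq* and *Apln* came out higher on HFD, by 0.61 and 0.21 on the log2 scale.

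This scale was also used as library size in the same edgeR test, an alternative chosen after seeing the data. With NCD replicate 1 left out, *Rarres2* was called higher (log2 fold change 1.58, adjusted p = 0.00595) and 3 genes were called lower by edgeR, *Cfd* (-2.92, adjusted p = 0.00302), *Retn* (-2.26, adjusted p = 0.00402) and *Rbp4* (-1.48, adjusted p = 0.00397), against 19.1% of all genes called higher and 3.76% called lower. *Nampt* (-0.42, adjusted p = 0.238), *Apln* (-0.51, adjusted p = 0.157), *Lep* (1.18, adjusted p = 0.136) and *Adipoq* (-0.08, adjusted p = 0.836) did not pass edgeR's test on this scale, on which the median gene of the whole table moved by 0.49. With all 6 mice on this scale 0 of the 8 genes were called by edgeR, and 3 had an unadjusted p under 0.05, beside 1868 of the 15241 genes tested. The markers themselves were not fixed: without NCD replicate 1 and with TMM, *Plin1*, *Lipe* and *Slc2a4* of the 12 fell. *Fabp4* and then *Cd36* had the highest levels of the 12 in every mouse and weighed most in the sum. Their means were 5428 and 2895 TMM-scaled CPM on NCD, of a mean sum of 19218, and 7164 and 3487 on HFD, of 18576.

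The genes with the profile most like each adipokine over the 6 mice were found among 9891 genes by the root mean square difference of centred log2 levels. Nearest to *Lep* was *Mest*, a gene linked to adipocyte enlargement, at 14.5, 136 and 161 TMM-scaled CPM on NCD and 395, 162 and 112 on HFD, with a difference of 0.27 where the median gene had 1.33. *Syp* and *Mtarc1* came next, and all of them were highest in HFD replicate 1, as *Lep* was. Nearest to *Cfd* was *Aacs* (0.24, median gene 1.66), an enzyme that returns ketone bodies to lipid synthesis, followed by *Retn* (0.42) and *Slc2a13*. Nearest to *Retn* were *Gpat3* and *Acacb*, enzymes of lipid synthesis, and *Nrg4*, which encodes a secreted adipose factor. *Rbp4* was closest to *Snhg11*, *Mlxipl*, which encodes the carbohydrate-sensing factor ChREBP, and *Chpt1*. *Adipoq* was closest to *Slc7a10*, *Plaat3* and *Cidec*, a lipid droplet protein, *Apln* to *Tmem120a*, *Dbi* and *Ywhag*, *Nampt* to genes that include *Hexim1* and *Phkb*, and *Rarres2* to *S100a10*, *Col5a2*, a collagen chain, and *Medag*. These are likenesses over 6 points that share libraries and scaling.

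**Figure D4:**
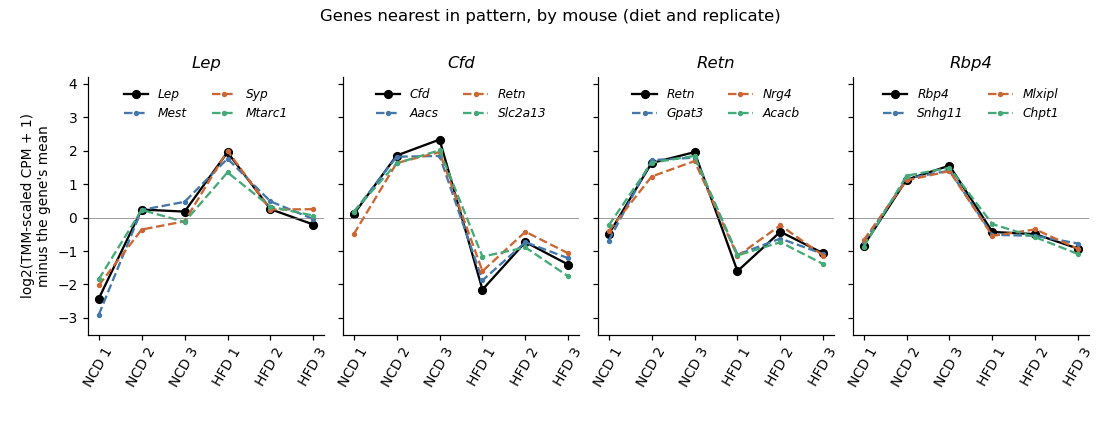
Centred log2(TMM-scaled CPM + 1) of *Lep*, *Cfd*, *Retn* and *Rbp4* (black) and the 3 genes nearest to each, over the 3 NCD and 3 HFD mice. Lines join the values of a gene and carry no order among replicates, and *Lep* and its neighbours peak in HFD replicate 1. Each gene of the *Cfd* and *Retn* groups has its lowest value in an HFD mouse, while NCD replicate 1 lies below HFD replicate 2 for *Retn*, *Gpat3* and *Nrg4*.

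Of 12 receptors and binding partners of these hormones, 2 were higher on HFD with all 6 mice and 0 lower, where 5.58% of all genes tested were higher and 1.9% lower. Without NCD replicate 1, 3 were higher and 1 lower, beside 10.7% and 10.1% of all genes. *C3ar1*, the receptor of a complement fragment downstream of adipsin, was at 18.1, 45.5 and 30.1 TMM-scaled CPM on NCD and 321, 234 and 285 on HFD, a log2 fold change of 3.17 (edgeR adjusted p = 0.0212), and 2.91 without NCD replicate 1. *Cap1*, described as a binding partner of resistin, was at 150, 159 and 155 on NCD and 345, 284 and 339 on HFD (log2 fold change 1.06, edgeR adjusted p = 0.0253), and 1.05 without NCD replicate 1. In both, all HFD mice were above all NCD mice. The macrophage markers, all 10 detected in every mouse, summed to 391, 926 and 850 TMM-scaled CPM on NCD and to 3739, 2285 and 2866 on HFD, and their part in the rise of *C3ar1* was not tested. Of these markers, *Cd163* did not rise, with means of 33.2 on NCD and 31.7 on HFD. Each of the others was higher in every HFD mouse than in any NCD mouse.

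The chemerin receptor *Cmklr1* was at 44.7, 166 and 147 TMM-scaled CPM on NCD and 74.4, 92.7 and 78.9 on HFD. It fell without NCD replicate 1 (log2 fold change -0.92, edgeR adjusted p = 0.0131), where *Ccrl2*, which binds chemerin without signalling, rose (1.27, adjusted p = 0.0368). With all 6 mice they were at -0.54 (adjusted p = 0.469, edgeR) and 0.03 (adjusted p = 0.981, edgeR). The third chemerin receptor, *Gpr1*, was at or below 2.36 TMM-scaled CPM in every mouse. The adiponectin receptors *Adipor1* and *Adipor2* had log2 fold changes of -0.03 and -0.10, and *Cdh13*, which holds adiponectin at the cell surface, had 0.69, with adjusted p of 0.919, 0.883 and 0.285 in edgeR, and the signs of *Adipor1* and *Adipor2* turned on total counts alone. *Lepr*, the leptin receptor, was at or below 7.30 TMM-scaled CPM in every mouse, with a log2 fold change of -0.48 (adjusted p = 0.456, edgeR). *Aplnr*, the apelin receptor, was at 13.1, 47.4 and 55.3 on NCD and 65.6, 80.4 and 115 on HFD, without overlap (log2 fold change 1.17, adjusted p = 0.204, edgeR). The RBP4 receptor *Stra6* was at 5.69, 0.72 and 0.22 on NCD and 0, 0.12 and 0.05 on HFD, every HFD mouse below every NCD mouse (log2 fold change -5.17, adjusted p = 0.0963 in edgeR). With all 6 mice DESeq2 called it lower (-5.25, adjusted p = 0.0020). Without NCD replicate 1, the mouse with its highest level, edgeR gave -2.94 (adjusted p = 0.117), and the levels of *Stra6* in the other mice were very low. *C5ar2* ranged from 0.02 to 22.4 on HFD and was not called by edgeR.

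Among 10 genes of the adipsin pathway, 3 were higher and 0 lower, both with all 6 mice (5.58% of all genes higher, 1.9% lower) and without NCD replicate 1 (10.7% and 10.1%). Beside *C3ar1* they were *C5ar1*, the C5a receptor (log2 fold change 3.38, adjusted p = 0.0212), and *Cfp*, properdin, which stabilises the convertase (1.95, adjusted p = 0.0462), by edgeR. The macrophage sums given above and the neutrophil sums, 4.2, 9.5 and 6.5 TMM-scaled CPM on NCD and 20.6, 157 and 421 on HFD, were higher in every HFD mouse beside these 3 genes, and their part was not tested. Of the 6 neutrophil markers, *Ly6g* had 0 counts except in HFD replicates 2 and 3, *Mmp8* had 0 in NCD replicates 1 and 2, and *Cxcr2* and *S100a9* had 0 in NCD replicate 1. In HFD replicate 1, *Csf3r* (15.8 TMM-scaled CPM) made up most of the sum, and *S100a8* (3.88) and *Mmp8* (0.416) lay above the NCD mice. *S100a9* (0.416) and *Cxcr2* (0.104) there lay below NCD replicate 2 (0.435 and 0.201). *C3*, the substrate of that convertase, and *Cfb*, the factor that adipsin cleaves, were called in neither comparison. *Cfb* was at 160, 456 and 389 TMM-scaled CPM on NCD and 547, 1033 and 860 on HFD (log2 fold change 1.28, adjusted p = 0.134 in edgeR). It was called higher by DESeq2 (adjusted p = 0.0327) and by edgeR when scaled to the adipocyte markers without NCD replicate 1 (adjusted p = 0.0259). Of 17 tested genes of adipokine assembly, processing and carriage, *Plod1* (1.36, adjusted p = 0.0447) and *Plod2* (1.5, adjusted p = 0.0289), lysyl hydroxylases that modify collagen-like chains, were higher in edgeR, 2 of the list where 5.58% of all genes were higher. *Masp1*, which encodes a protease that can activate pro-adipsin, was at 5.63, 16.6 and 10.5 TMM-scaled CPM on NCD and 1.37, 1.68 and 1.27 on HFD and fell (-2.92, adjusted p = 0.0240 by edgeR), the 1 gene of the list called lower, where 1.9% of all genes were. Without NCD replicate 1, 4 of the 17 were higher and 2 lower, *Plod3*, *Rbp7* and *Gstk1* being added, beside 10.7% and 10.1% of all genes, so that the lower calls were near the background.

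Of 14 tested genes of NAD salvage, the pathway of *Nampt*, 2 were higher with all 6 mice, the NAD and nucleotide hydrolases *Bst1* (log2 fold change 3.20, adjusted p = 0.0415) and *Enpp1* (2.12, adjusted p = 0.0254), and 0 were lower in edgeR, beside 5.58% and 1.9% of all genes. Without NCD replicate 1, *Nmnat3* (-0.80, adjusted p = 0.0369) and *Nnmt* (-0.61, adjusted p = 0.0232) were lower as well by edgeR, and 2 of 14 higher and 2 lower were near the 10.7% and 10.1% of all genes. The median log2 fold change of the list was -0.01 with all 6 mice.

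Of 20 transcriptional regulators of adipokines, *Klf15* was the single one called with all 6 mice, when 1.9% of all genes were called lower. It was at 79.8, 85.9 and 107 TMM-scaled CPM on NCD and 31.3, 28.3 and 13.7 on HFD and fell (log2 fold change -1.90, edgeR adjusted p = 0.0320). Once NCD replicate 1 was left out, 7 were lower and 1 higher: *Srebf1* (-2.23), *Ppargc1a* (-2.0), *Klf15* (-1.97), *Cebpa* (-1.14), *Pparg* (-1.11), *Foxo1* (-0.88) and *Rxra* (-0.87), the factors of the adipocyte programme and lipid synthesis among them, and the stress-induced *Atf3* (3.25), beside 10.1% of all genes lower and 10.7% higher. When scaled to the adipocyte markers without that mouse, *Srebf1*, *Ppargc1a* and *Klf15* remained lower and *Atf3* higher (3.76% of all genes lower, 19.1% higher), while *Cebpa* and *Pparg* had log2 fold changes of -0.67 and -0.64 (adjusted p = 0.0702 and 0.0678, edgeR).

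Of 12 tested genes of C1q and its TNF-related proteins, the family to which adiponectin belongs, *C1qa*, *C1qb*, *C1qc* and *C1qtnf6* were higher with all 6 mice, by 1.48, 1.95, 1.69 and 1.53 on the log2 scale, and 0 were lower, beside 5.58% and 1.9% of all genes. In the comparison without NCD replicate 1, 6 were higher and 1 lower, *C1qtnf12* (adipolin), at 20.5, 48.0 and 59.7 TMM-scaled CPM on NCD and 19.2, 16.6 and 13.1 on HFD (-1.71, adjusted p = 0.00718 by edgeR), beside 10.7% and 10.1% of all genes. *Retnla*, a resistin-like gene of macrophages, was at 51.9, 139 and 144 on NCD and 127, 33.7 and 14.8 on HFD, with overlapping diets (-0.93, adjusted p = 0.474 by edgeR). *Retnlg*, the resistin-like gene of neutrophils, had 0 counts in the NCD mice and was at 0.139, 1.76 and 5.99 TMM-scaled CPM in HFD replicates 1, 2 and 3, in the same order as the neutrophil sums. Its counts were too few for the edgeR test with all 6 mice, where DESeq2 called it higher (9.41, adjusted p = 6.2e-06). Without NCD replicate 1, edgeR did not call *Retnlg* with TMM (adjusted p = 0.0713) and did when scaled to the adipocyte markers (adjusted p = 0.0177).

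Of 47 other secreted factors of fat that were tested, 14 were called higher and 1 lower with all 6 mice, where 5.58% of all genes were higher and 1.9% lower. The secreted Wnt antagonist *Sfrp5* was at 0.55, 2.52 and 2.31 TMM-scaled CPM on NCD and 507, 153 and 202 on HFD (log2 fold change 7.30, edgeR adjusted p = 0.0212), highest in the mouse with the highest *Lep*. *Spp1*, osteopontin, was at 0.73, 3.36 and 4.99 on NCD and 57.1, 695 and 1170 on HFD (7.72, edgeR adjusted p = 0.0355), in the reverse order of HFD mice to *Lep*. *Il1rn* (5.07), *Saa3* (4.13), *Gdf15* (3.64) and *Ccl2* (3.58), which encode an interleukin-1 antagonist, an acute-phase protein, a stress hormone and a monocyte attractant, also rose, and *Tafa5* fell (-4.72), with adjusted p between 0.0192 and 0.0495 in edgeR. The macrophage and neutrophil sums given above were higher in every HFD mouse, as were the genes of this list that rose and *C1qa*, *C1qb* and *C1qc*. Not every marker in these sums was higher, as given above. Among the HFD mice, replicate 1 had the lowest *Spp1*, the highest macrophage sum and the lowest neutrophil sum. The part of these sums was not tested. Median log2 fold changes with all 6 mice were 0.36 for the receptors and partners, 1.58 for the adipsin pathway, 0.12 for assembly and carriage, -0.31 for the regulators, 0.74 for the C1q relatives and 0.96 for the other secreted factors, beside -0.08 for all genes tested. None of the named genes of these lists that were called with all 6 mice was called when any 1 of the 5 mice other than NCD replicate 1 was left out.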

How the data were processed

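RNA of gWAT from 3 NCD and 3 HFD mice was sequenced from TruSeq mRNA libraries. The deposited table holds raw counts, the number of reads that the authors assigned to each gene in each mouse, and was not normalized. Per the submitters' notes the tools were bcl2fastq 2.20.0, Trimmomatic, HISAT2 2.1.0, StringTie 1.3.4d and DESeq2, on mm10. The third HFD column carries the number 4 in its label. Columns without a sample numbered 0. Counts of genes without a symbol (48) stayed in the library sizes. Names, coordinates and start regions were from RefSeq GRCm38.p6, and FPKM used exon lengths of 17793 genes, which may differ from those of the authors.

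Low genes were removed with filterByExpr (minimum count 10, minimum total 15). The rest were fitted with glmQLFit after TMM scaling (edgeR 4.0.16 in R 4.3.3) and p-values were adjusted by Benjamini-Hochberg, with a threshold of 0.05. A standard error is the log2 fold change over the root of F. The common biological coefficient of variation was 0.424. Ratios were compared on the log2 scale with exact two-sided permutation tests. The procedure was tested on simulated data. Replicates of a diet differed far beyond sampling noise. Alternatives were no filter, other scalings, removal of seminal vesicle genes, DESeq2 1.42.0, limma 3.58.1, the replicate block, each mouse left out and, chosen after seeing the data, scaling to the adipocyte markers. The 8 genes and all lists were chosen with earlier results of these data known. Named from the lists were every receptor and, of each other list, at most 8 genes, first those called with all 6 mice, then those called without NCD replicate 1, each by size of change. Some genes that this rule or the likeness search named are not reported here. The likeness search used genes with a mean of at least 10 CPM. Figures were drawn with matplotlib 3.10.9.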

Additional observations from a re-analysis of the deposited data

How the results depend on the processing

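Of all genes, 1139 were called with all 6 mice by edgeR, 3853 by DESeq2 and 12 when scaled to the adipocyte markers, which became 3538 without NCD replicate 1, and leaving out each mouse gave between 2 and 3234. Of the 8 adipokines 1 was called, against 0 on total counts alone or scaled to the adipocyte markers, 5 by DESeq2, 4 scaled to the adipocyte markers without NCD replicate 1, and between 0 and 6 with each mouse left out. The log2 fold change of *Adipoq* turned to 0.15 on total counts alone and 0.11 in limma, and lay between -0.56 and 0.41 with each mouse left out. By DESeq2, *Retn* (-2.31), *Cfd* (-3.01), *Rbp4* (-1.53) and *Rarres2* (1.45) passed, as they did scaled to the adipocyte markers without NCD replicate 1 (-2.26, -2.92, -1.48 and 1.58). Leaving out each mouse gave -2.75 to -1.88 for *Retn*, -3.42 to -2.54 for *Cfd*, -1.96 to -1.06 for *Rbp4*, -0.99 to -0.14 for *Apln*, 1.11 to 1.67 for *Rarres2* and -0.93 to -0.79 for *Nampt*, whose call was also lost on total counts alone (-0.40) and scaled to the adipocyte markers with all mice (-1.47) or without NCD replicate 1 (-0.42). Against *Plin1* alone in place of the 12 markers, *Adipoq* (0.61) and *Apln* (0.21) turned higher on HFD. The direction of the other 6 adipokines against the markers held with each mouse left out and against *Plin1* alone, and that of all 7 ratios to *Adipoq* under the alternatives run, replicate numbers as a block included. The cause of these changes was not tested, and fits with a mouse left out also held fewer mice.

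With the replicate block, 12 genes and 0 adipokines were called, *Nampt* had -0.88 and *Adipoq* 0.10. Same-numbered mice of the diets had correlations of -0.04, 9.96e-06 and -0.01 in their deviations from the diet means, which gave no sign of pairing. Mice with unlike numbers lay between -0.07 and 0.06. Deviations of the NCD mice also hold their unequal seminal vesicle RNA, so this check cannot exclude a pairing.

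Among the other named genes, the direction turned for *Lepr* (0.16 on total counts alone, 0.26 scaled to the adipocyte markers without NCD replicate 1), *Adipor1* (0.53 and 0.62 in these settings), *Adipor2* (0.27 and 0.0898 in these settings, 0.00373 with the replicate block, 0.0063 in limma), *Nnmt* (0.12 on total counts, 0.12 with the block, 0.16 in limma) and *Ccrl2* (-1.30 scaled to the adipocyte markers). With each mouse left out, *Adipor1* lay between -0.15 and 0.13, *Adipor2* between -0.39 and 0.19, *Ccrl2* between -0.37 and 1.27 and *Nnmt* between -0.61 and 0.18. With at least 49575113 counts in each library, counting error was small for the 8 genes, and the number of mice limits the precision.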
